A study of Homo sapiens with 13 samples.

Results

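The genes described here encode the protein subunits of the mitochondrial ribosome and of respiratory complex I, and they were examined in CUT&RUN peak lists from PANC1 cells that stably express BRG1 (labelled BRG oe). Members were the RefSeq GRCh38.p14 protein-coding genes on chromosomes 1 to 22 and X whose symbols begin with MRPL or MRPS and a number, or with NDUF. There were 123 of them among 19974 coding genes, 77 for the mitoribosome (49 MRPL and 28 MRPS genes) and 46 for complex I. The complex I genes were 7 core subunits, 31 accessory subunits, counting the readthrough gene NDUFC2-KCTD14, and 8 assembly factors (NDUFAF genes). Symbols were taken as they stand, although MRPS18A and MRPS30 belong to the large subunit in structures of the human mitoribosome.

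PANC1 is an established human pancreatic ductal carcinoma line. In CUT&RUN an antibody brings a nuclease to its target in the nucleus, and the DNA cut free there is sequenced. The series profiled 6 targets with 2 libraries each: the remodeller ATPase BRG1 (SMARCA4), the transcription factor NRF2 (NFE2L2), the remodeller subunit SMARCC1, and the histone marks H3K4me1, H3K4me3 and H3K27ac. All 12 libraries came from the cells expressing BRG1, so no comparison with another BRG1 level was possible here. The labels do not say whether the 2 libraries of a target came from separate cultures, and the IgG library was not used here.

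The mitoribosome translates the few respiratory chain subunits that are encoded in mitochondrial DNA, and all of its own proteins are made from nuclear genes and imported. Complex I, the NADH:ubiquinone oxidoreductase, takes electrons from NADH and pumps protons across the inner membrane. Most of its subunits, and the assembly factors that build it, are nuclear as well. Promoters of such genes are known for sites of NRF1 (nuclear respiratory factor 1), of the ETS family factor GABP and of YY1. GABP was long also called NRF-2, but the NRF2 profiled here is the antioxidant factor NFE2L2, a different protein. H3K4me3 is a mark of promoters, H3K27ac of active promoters and enhancers, and H3K4me1 mainly of enhancers and promoter flanks.

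The promoters below are those the results turn on, from 250 bases before to 50 after an annotated start, read from RefSeq GRCh38.p14 on the coding strand. MRPL17 (chr11:6683291-6683590, minus strand) and NDUFAF5 (chr20:13784778-13785077, plus strand) had the highest H3K4me3 folds of the mitoribosome and complex I families. MRPL45 (chr17:38296918-38297217, plus strand) was among the lowest and had no H3K27ac region. NDUFB11 (chrX:47144653-47144952, minus strand), MRPL47 (chr3:179604589-179604888, minus strand) and MRPS14 (chr1:175023376-175023675, minus strand) had factor peaks beside or on their starts. Capitals mark the ETS core CCGGAA, the NRF1 core TGCGCA and the YY1 core ATGGCGG on either strand.
MRPL17: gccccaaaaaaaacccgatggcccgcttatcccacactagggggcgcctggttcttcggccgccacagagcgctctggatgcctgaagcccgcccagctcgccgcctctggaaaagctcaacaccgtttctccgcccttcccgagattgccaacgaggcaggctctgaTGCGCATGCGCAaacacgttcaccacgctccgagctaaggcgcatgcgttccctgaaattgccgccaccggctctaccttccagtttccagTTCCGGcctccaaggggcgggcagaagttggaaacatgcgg
NDUFAF5: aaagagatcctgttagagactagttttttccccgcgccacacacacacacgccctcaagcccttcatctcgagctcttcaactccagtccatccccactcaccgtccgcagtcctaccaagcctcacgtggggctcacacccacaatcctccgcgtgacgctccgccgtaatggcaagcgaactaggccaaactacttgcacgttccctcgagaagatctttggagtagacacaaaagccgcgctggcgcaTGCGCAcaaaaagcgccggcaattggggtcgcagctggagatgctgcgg
MRPL45: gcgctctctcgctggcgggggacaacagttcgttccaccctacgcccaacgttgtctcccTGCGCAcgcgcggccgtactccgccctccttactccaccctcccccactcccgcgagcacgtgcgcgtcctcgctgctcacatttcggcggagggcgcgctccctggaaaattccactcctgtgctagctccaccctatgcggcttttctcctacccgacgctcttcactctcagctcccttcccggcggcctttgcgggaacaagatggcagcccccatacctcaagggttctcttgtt
NDUFB11: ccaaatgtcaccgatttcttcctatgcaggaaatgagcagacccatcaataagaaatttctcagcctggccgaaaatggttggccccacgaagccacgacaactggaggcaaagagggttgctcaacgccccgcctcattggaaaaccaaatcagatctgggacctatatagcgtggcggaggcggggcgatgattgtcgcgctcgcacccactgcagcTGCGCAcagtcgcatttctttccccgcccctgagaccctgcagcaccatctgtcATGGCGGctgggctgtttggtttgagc
MRPL47: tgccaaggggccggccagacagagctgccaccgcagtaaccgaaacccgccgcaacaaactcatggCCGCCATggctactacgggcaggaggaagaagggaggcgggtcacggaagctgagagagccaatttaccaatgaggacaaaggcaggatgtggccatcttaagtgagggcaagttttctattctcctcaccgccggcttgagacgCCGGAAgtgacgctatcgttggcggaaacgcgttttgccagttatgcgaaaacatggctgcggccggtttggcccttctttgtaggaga
MRPS14: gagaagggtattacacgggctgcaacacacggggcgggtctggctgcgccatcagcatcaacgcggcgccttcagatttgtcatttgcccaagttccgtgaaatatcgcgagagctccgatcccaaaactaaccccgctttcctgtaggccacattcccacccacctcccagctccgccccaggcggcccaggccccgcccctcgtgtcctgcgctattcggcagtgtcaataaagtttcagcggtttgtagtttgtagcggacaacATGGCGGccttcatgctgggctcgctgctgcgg
The MRPL17 promoter held 2 NRF1 cores and 1 ETS core, and NDUFAF5 held 1 NRF1 core. MRPL45 also held 1 NRF1 core. NDUFB11 held 1 NRF1 and 1 YY1 core, MRPL47 held 1 ETS and 1 YY1 core, and MRPS14 held 1 YY1 core.

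For each gene the span plus 1000 bp on either side was searched for peaks, with an overlap of at least 1 bp. A region is a merged stretch of peaks that holds at least 1 peak from each library of a target. Nearly all members carried the promoter marks. H3K4me3 regions lay at 76 of 77 mitoribosome genes and 46 of 46 complex I genes, against 62.4% of all coding genes. H3K27ac regions lay at 64 of 77 mitoribosome genes (83.1%, exact 95% interval 72.9% to 90.7%) and 44 of 46 complex I genes (95.7%, 85.2% to 99.5%), against 50.2% of all coding genes. H3K4me1 regions were found at 9 of 77 mitoribosome genes and 11 of 46 complex I genes, against 26% of all coding genes. These intervals cover counting error only. An exact permutation test over 2 libraries cannot reach the usual threshold, so the differences between the families, which were read from the same libraries, are given as values with no test, also within each library.

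Factor regions were rare in both families. BRG1 regions lay at 0 of 77 mitoribosome genes and 2 of 46 complex I genes, against 4.36% of all coding genes. SMARCC1 regions lay at 1 of 77 mitoribosome genes and 3 of 46 complex I genes, against 0.681% of all coding genes. NRF2 regions lay at 0 of 77 and 0 of 46, against 0.626% of all coding genes. A count of 0, read as at most 3 counts of the total, allows shares of up to 3.90% and 6.52%, and the exact intervals end at 4.68% and 7.71%. Members are short, with a median span of 10986 bp against 24170.5 bp for all coding genes, and a longer window can catch more peaks. Among genes of at most 50000 bp, factor regions of any kind lay at 4 of 110 members (3.64%), against 1.82% of coding genes, and without that limit at 6 of 123 (4.88%), against 5.2%. By factor, regions lay at 1 of the 110 short members for BRG1 (short coding genes 1.22%), 0 for NRF2 (0.284%) and 3 for SMARCC1 (0.408%). Of these 3, MRPL47 and NDUFB5 were counted for 1 and the same SMARCC1 region, so the counts of members are not counts of separate sites. H3K4me1 regions lay at 14 of the 110 short members (12.7%), against 15.2% of short coding genes, a share near the background.

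**Figure D1:**
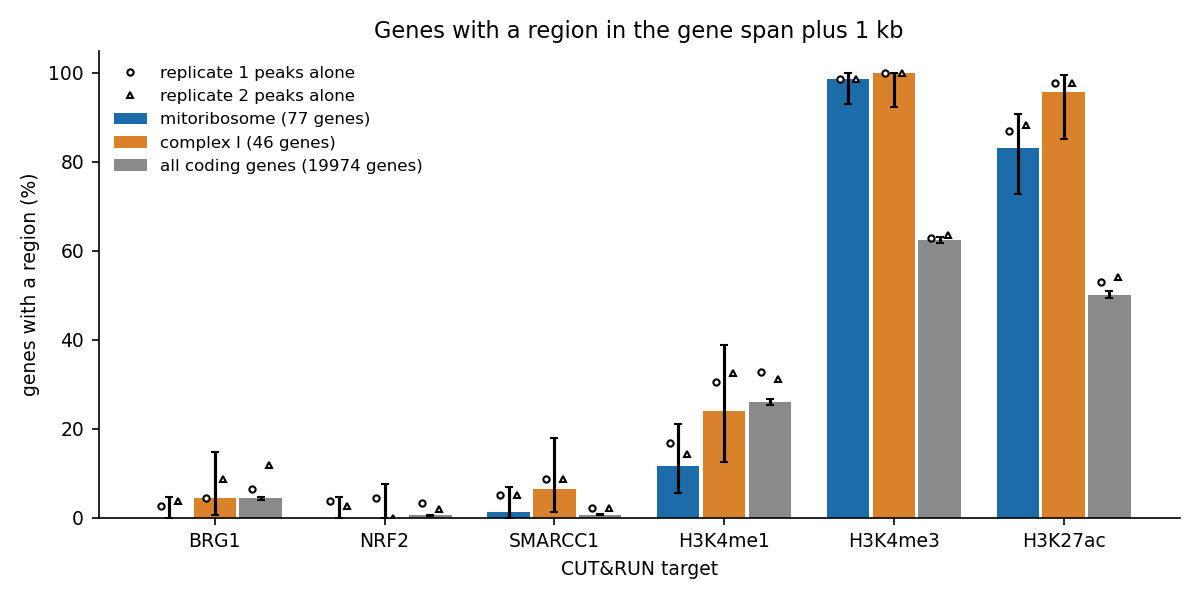
Share of genes (%) with a region of each target in the gene span plus 1 kb, for 77 mitoribosome genes, 46 complex I genes and all 19974 coding genes; bars with exact 95% intervals, circles and triangles the shares from replicate 1 and replicate 2 peaks alone. H3K4me3 and H3K27ac bars of both families stand above those of all coding genes, and no factor bar exceeds 6.52%.

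The marks came together. Of the 77 mitoribosome genes, 64 held both H3K4me3 and H3K27ac, and of the 46 complex I genes 44 did, against 48.2% of all coding genes. Both marks without H3K4me1 were held by 55 mitoribosome genes (71.4%) and 33 complex I genes (71.7%), against 31.4% of all coding genes. All 3 marks were held by 9 mitoribosome and 11 complex I genes, against 16.9% of all coding genes. H3K4me3 without H3K27ac was held by 12 mitoribosome genes (15.6%) and 2 complex I genes (4.35%), against 14.1% of all coding genes.

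The H3K27ac share differed by -12.5 percentage points (mitoribosome minus complex I). With the peaks of one library alone the difference was -10.8 points in replicate 1 and -9.51 points in replicate 2, so the mitoribosome share was lower in both. Within the mitoribosome, 40 of 49 large subunit genes and 24 of 28 small subunit genes had an H3K27ac region. Within complex I, all 7 core subunits and all 8 assembly factors had one, and so did 29 of 31 accessory subunits.

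The height of a peak was read from the fold enrichment deposited by the authors, taking for each gene and library the highest value in the window. Median H3K4me3 fold was 18.1 over the 76 marked mitoribosome genes (18.2 in replicate 1, 17.6 in replicate 2) and 23.1 over the 46 complex I genes (22.5 and 23.2). Over the 12455 coding genes with a region it was 15.9. The difference of the medians, mitoribosome minus complex I, was -5.03 fold units, and it was -4.29 in replicate 1 and -5.59 in replicate 2. By mean of the libraries, none of the 46 complex I genes fell below the lower quartile of all marked coding genes (10.1), while 8 of the 76 mitoribosome genes did. In replicate 2 alone NDUFV2 lay below this value. Above the upper quartile (22.6) lay 25 mitoribosome and 26 complex I genes.

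By role, median H3K4me3 fold was 18.6 for the 48 marked large subunit genes and 16.1 for the 28 small subunit genes. It was 28.4 for the 7 core subunits, 23.1 for the 31 accessory subunits and 22.9 for the 8 assembly factors. Covered width separated the families less. H3K4me3 peaks covered a median of 1782 bp at mitoribosome genes and 2016 bp at complex I genes, against 1968 bp at all marked coding genes. Median H3K27ac fold was 4.49 for the mitoribosome, 4.81 for complex I and 4.58 for all coding genes with a region, so the acetylation peaks of members stood at the height usual in these libraries.

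**Figure D2:**
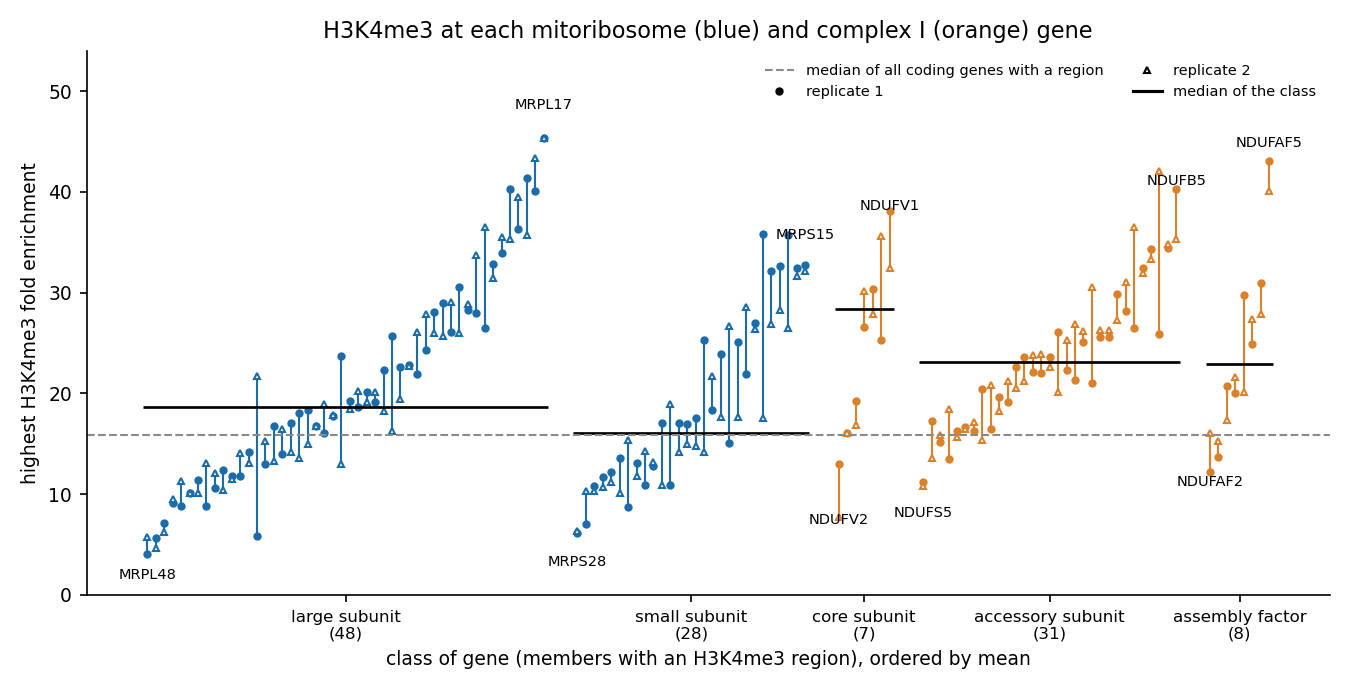
Highest H3K4me3 fold enrichment of each member with a region (y axis), by class and ordered by mean; circles are replicate 1, triangles replicate 2, black lines class medians, the dashed line the median of all coding genes with a region. Complex I genes (orange) have means of 10.3 or higher, while 8 mitoribosome genes (blue) lie below 10.1, and MRPL17 is highest.

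Among large subunit genes, MRPL17 had H3K4me3 folds of 45.31 and 45.30 in replicates 1 and 2 (mean 45.3 ± 0.00375, SD, n = 2). MRPL12, whose protein also binds the mitochondrial RNA polymerase, had 40.1 and 43.4 (41.7 ± 2.36). MRPL14 had 41.4 and 35.7 (38.6 ± 3.98). These were the highest of the mitoribosome family, and both libraries placed all 3 well above the upper quartile of marked coding genes.

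At the other end, MRPL48 had H3K4me3 folds of 4.06 and 5.73 (4.89 ± 1.18, SD, n = 2). MRPL45, whose protein helps to anchor the mitoribosome at the inner membrane, had 5.70 and 4.64 (5.17 ± 0.751). The small subunit gene MRPS28 had 6.10 and 6.36 (6.23 ± 0.183). In both libraries these 3 lay below the lower quartile of marked coding genes.

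The highest small subunit gene was MRPS15, with H3K4me3 folds of 32.7 and 32.2 (32.5 ± 0.372, SD, n = 2). Some members differed between libraries. MRPL57 had folds of 5.82 and 21.7 in replicates 1 and 2, and MRPS30 had 35.9 and 17.5. For these genes the mean is a poor guide to either library. Over the 122 members with a region, the folds of the libraries had a Spearman rho of 0.845, over points that share libraries and peak caller.

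Among the core subunits of complex I, NDUFV1, which binds NADH and the flavin, was highest, with H3K4me3 folds of 38.1 and 32.5 (35.3 ± 4.01, SD, n = 2). NDUFS3 had 25.3 and 35.7 (30.5 ± 7.34). NDUFS1, an iron-sulphur subunit of the NADH arm, had 30.3 and 27.8 (29.1 ± 1.77). The spread of NDUFS3 overlapped those of NDUFV1 and NDUFS1, its neighbours in this order.

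NDUFS7, which carries the last iron-sulphur cluster before ubiquinone, had H3K4me3 folds of 26.6 and 30.2 (28.4 ± 2.50, SD, n = 2). The iron-sulphur subunit NDUFS8 had 16.1 and 16.0 (16.1 ± 0.0474). NDUFV2, partner of NDUFV1, had the lowest mean of all complex I genes, with 13.0 and 7.69 (10.3 ± 3.72). In replicate 1 alone NDUFS5 and NDUFAF2 were lower than NDUFV2. Thus the promoters of the core subunits were not marked alike: NDUFV1, NDUFS3, NDUFS1 and NDUFS7 lay above NDUFS8 and NDUFV2 in both libraries.

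All 7 core subunits had an H3K27ac region. NDUFS3 had the highest core H3K27ac folds, 6.71 and 6.63 (6.67 ± 0.0566, SD, n = 2), and NDUFV2 the lowest, 3.89 and 3.09 (3.49 ± 0.564). NDUFV1, highest in H3K4me3, had H3K27ac folds of 4.08 and 4.46 (4.27 ± 0.269). The order of the core genes by the 2 marks therefore differed.

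Of the assembly factors, NDUFAF5, an arginine hydroxylase that modifies NDUFS7, had the highest H3K4me3 of complex I, with folds of 43.0 and 40.1 (41.6 ± 2.05, SD, n = 2). NDUFAF2, which acts late in assembly, was the lowest assembly factor, with 12.2 and 16.1 (14.1 ± 2.73). Among accessory subunits, NDUFB5 had 40.3 and 35.3 (37.8 ± 3.51), and NDUFS5 was lowest with 11.2 and 10.8 (11.0 ± 0.247). Both libraries kept NDUFAF5 above NDUFAF2 and NDUFB5 above NDUFS5.

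The highest H3K27ac folds of the mitoribosome family were those of MRPL47, with 7.21 and 11.5 (9.37 ± 3.06, SD, n = 2), MRPL52, with 8.38 and 9.78 (9.08 ± 0.986), and MRPL36, with 7.03 and 9.16 (8.09 ± 1.51). In complex I they were those of NDUFB1, with 9.86 and 9.25 (9.56 ± 0.433), NDUFB5, which shares its values with MRPL47, and NDUFC2-KCTD14, with 8.64 and 8.50 (8.57 ± 0.0957). The NDUFC2-KCTD14 summits lay 56688 and 56806 bp downstream of its annotated start in replicates 1 and 2, inside the readthrough span and away from that start. The spreads of the genes named here overlapped between the families.

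Across the 109 members with an H3K27ac peak in each library, mean H3K4me3 and H3K27ac folds had a Spearman rho of 0.528, again over genes that share libraries and peak caller. Members with an H3K27ac region had a median H3K4me3 fold of 21.2 (108 genes), and those with H3K4me3 but no H3K27ac region had 11.0 (14 genes). Across all coding genes the same medians were 18.3 and 8.14. In the mitoribosome they were 19.9 (64 genes) and 10.3 (12 genes), and in complex I 23.5 (44 genes) and 16.2 (2 genes).

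**Figure D3:**
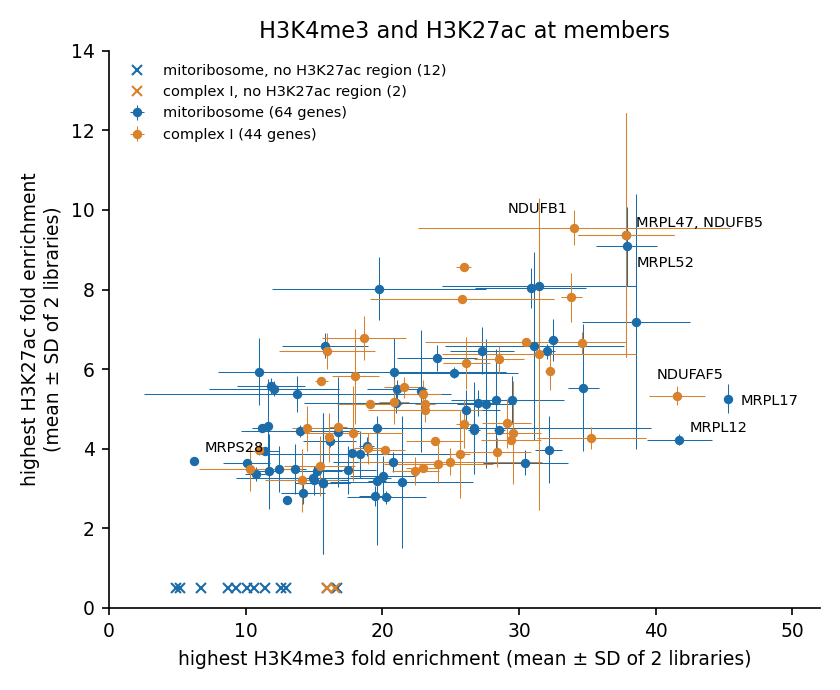
Mean highest H3K4me3 fold (x axis) against mean highest H3K27ac fold (y axis) per member, error bars SD of 2 libraries; crosses, drawn at a fixed height of 0.5, are members with H3K4me3 but no H3K27ac region. The crosses all lie at an H3K4me3 fold of 16.7 or lower.

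The members without an H3K27ac region, looked up after the counts were seen, were MRPL9, MRPL15, MRPL23, MRPL28, MRPL35, MRPL38, MRPL45, MRPL48 and MRPL51 of the large subunit and MRPS17, MRPS26, MRPS31 and MRPS33 of the small subunit. In complex I they were NDUFA5 and NDUFAB1, the mitochondrial acyl carrier protein. NDUFAB1 had H3K4me3 folds of 16.7 and 16.4 and an H3K27ac peak in replicate 2 alone (fold 3.304). NDUFA5 had H3K4me3 folds of 16.2 and 15.6 and an H3K27ac peak in replicate 1 alone (fold 2.66). MRPL48 had H3K27ac peaks in both libraries, with folds of 3.27 and 2.88, that did not overlap. A peak missing from a list cannot be told from a peak missed in a shallow library, since no read counts were given.

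MRPL23 (chr11:1947332-2014944) was the only member with no peak of any target in any of the 12 lists. The empty stretch around it reached from position 1877970, where the last H3K4me1 peak before it ended, to 2076611, where the next one began, 198640 bp without a peak of any target. The nearest H3K4me3 peaks ended at 1764603 and 1764617 on one side and began at 2269158 and 2269092 on the other, in replicates 1 and 2. Whether the marks were absent there or the stretch was left out of mapping or calling was not tested, so the gap is not read as absence of the marks.

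The position of the marks was read from annotated starts, which the RefSeq promoter table gave for 109 members (69 mitoribosome, 40 complex I). Members with no entry included MRPL2, MRPL10, MRPL13, MRPL15, MRPL21, MRPL23, MRPL35, MRPS28, NDUFAF6, NDUFB5, NDUFB9, NDUFC2 and NDUFS5. No member on chromosome 8 had an entry, so the start and motif results leave that chromosome's members out. An H3K4me3 region lay over a start of 65 of 69 mitoribosome genes and 39 of 40 complex I genes, against 54.1% of coding genes with a start. Within 1000 bp it was 69 of 69 and 40 of 40, against 62.1%. H3K27ac covered the start itself at 30 of 69 and 21 of 40, against 21.6%, and lay within 1000 bp at 59 of 69 and 38 of 40, against 47.5%.

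By median, the strongest peaks sat just inside the genes. In replicate 1, H3K4me3 summits were downstream at 56 of 69 mitoribosome and 32 of 40 complex I genes. H3K27ac summits were downstream at 47 of 62 and 29 of 39. Some lay far off, as at MRPL20, 8702 bp from its start in replicate 1 for H3K4me3. In replicate 1 the median H3K4me3 summit lay 351 bp downstream of the nearest start at mitoribosome genes and 293.5 bp at complex I genes, and in replicate 2 219 bp and 215.5 bp. H3K27ac summits lay at 185 and 179 bp in replicate 1 and at 157 and 212 bp in replicate 2. H3K27ac regions covered 30.6% of mitoribosome and 32.1% of complex I genes at 100 bp upstream of the start, 40.1% and 50.2% at the start, and 61.5% and 84.4% at 300 bp downstream.

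H3K4me1 lay elsewhere. An H3K4me1 region was on the start of 0 of 109 members, against 1.49% of coding genes with a start, and within 1000 bp of it at 2 (MRPL14 and NDUFB2), against 5.33%. Factor regions within 1000 bp of a start were found at 1 of 109 members for BRG1 (coding genes with a start 0.639%), 1 for SMARCC1 (0.285%) and 0 for NRF2 (0.19%). In neither library did the strongest H3K4me1 peak of a member have its summit within 1000 bp of a start. Median summits lay 15555 and 8212 bp downstream at mitoribosome genes and 6844 and 10650.5 bp downstream at complex I genes, in replicates 1 and 2.

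**Figure D4:**
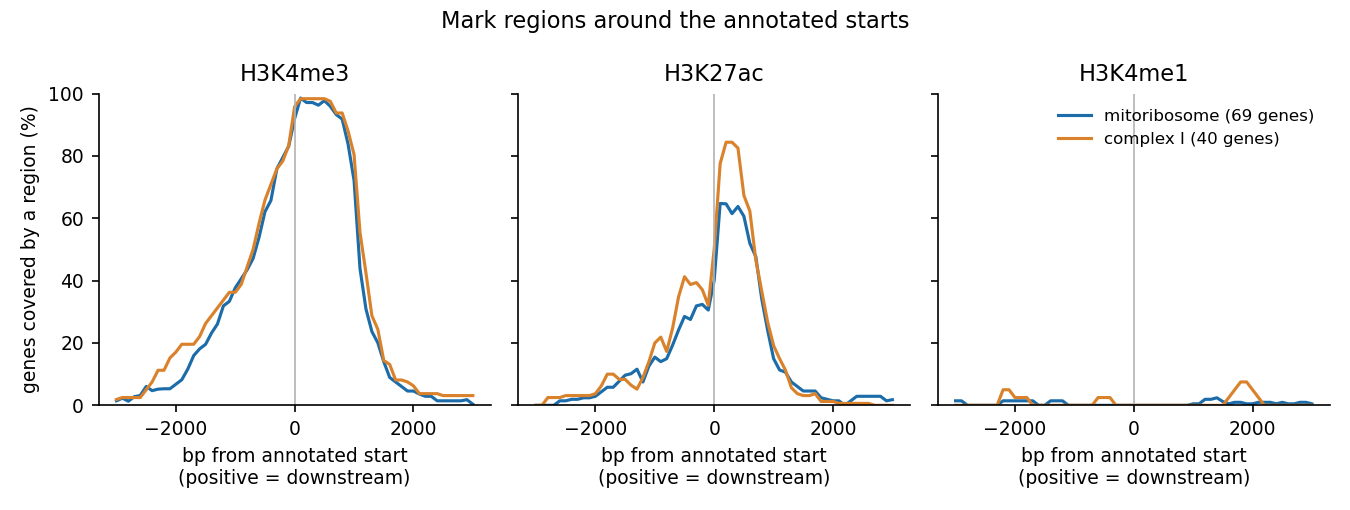
Share of genes (%) covered by a region at each distance (bp) from the annotated start, positive downstream, for mitoribosome (69 genes, blue) and complex I (40 genes, orange). H3K4me3 peaks just downstream of the start, H3K27ac has a shoulder upstream and a peak downstream, and H3K4me1 stays near 0.

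The strongest H3K4me1 of the mitoribosome family was at MRPS28, with folds of 6.13 and 7.26 (6.70 ± 0.803, SD, n = 2) over a gene of 111543 bp. MRPS35 had 3.60 and 4.82 (4.21 ± 0.859), and MRPL14 had 3.94 and 4.09 (4.01 ± 0.105). MRPS28 thus had one of the lowest H3K4me3 folds and the highest H3K4me1 fold of the 123 members. Each is the highest value anywhere in the window, and MRPS28 had no listed start, so the peaks need not lie together.

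In complex I, NDUFC2-KCTD14 had H3K4me1 folds of 5.13 and 4.61 (4.87 ± 0.365, SD, n = 2), with 8 and 6 peaks over the long readthrough span. NDUFB2 had 5.52 and 4.04 (4.78 ± 1.04). Median H3K4me1 fold over marked genes was 3.48 for the mitoribosome (9 genes), 3.60 for complex I (11 genes) and 4.03 for all coding genes. The families did not keep one order in both libraries.

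Many of these starts lay close to the start of another gene. Of the 109 members with a start, 40 (36.7%) had the start of another coding gene on the opposite strand within 1000 bp, against 13.2% of all coding genes with a start. They were 23 of 69 mitoribosome and 17 of 40 complex I genes. Only the 15812 coding genes with a listed start could be found as neighbours. MRPL47 was thus counted as having none, although NDUFB5, which has no listed start, lies beside it. MRPL9 and OAZ3 start 16 bp apart, MRPL49 and FAU 49 bp, NDUFA1 and RNF113A 99 bp, and NDUFAF5 and ESF1 109 bp. H3K4me3 covered a median of 2491 bp at the 40 members with such a neighbour and 1544 bp at the 69 without a listed one. Their H3K4me3 height showed no common order. In the mitoribosome the median fold was 15.6 with such a neighbour (23 genes) and 19.5 without (46 genes). Its order changed between libraries, with 17.0 with and 19.3 without in replicate 1, and 19.0 with and 17.6 without in replicate 2. In complex I the median was 25.8 with (17 genes) and 22.4 without (23 genes), 25.3 and 22.1 in replicate 1, and 27.2 and 21.6 in replicate 2. Over both families the median was 19.98 with and 21.9 without in replicate 1, and 21.5 with and 18.9 without in replicate 2. An H3K27ac region was present at 37 of 40 and 60 of 69. A mark region that spans both starts cannot be assigned to either gene. Regions did not always span both. MRPL51, whose start lies 840 bp from that of NCAPD2, had separate H3K4me3 regions at chr12:6492433-6493804, over its start, and chr12:6494029-6495115.

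Within the list, 4 H3K4me3 regions served 2 members each. MRPL47 and NDUFB5 shared chr3:179603673-179605693, and MRPL36 and NDUFS6 shared chr5:1798811-1802424, so each of these pairs joins a mitoribosome gene to a complex I gene. MRPL46 and MRPS11 shared chr15:88466333-88468631, and NDUFC2 and NDUFC2-KCTD14, which have a common start, shared chr11:78078749-78080541. In all, 142 H3K4me3 regions lay at members, 101 members had 1 and 21 had 2 or more. The widest H3K4me3 coverage was 5967 and 5884 bp at MRPL20 and 4502 and 4696 bp at MRPS34, and in complex I 6778 and 6903 bp at NDUFB10 and 6677 and 6399 bp at NDUFAF6. These widths add up all H3K4me3 peaks in the window, those of neighbouring genes included.

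Peaks of BRG1, NRF2 or SMARCC1 in at least 1 library lay at 12 of 77 mitoribosome genes (15.6%) and 9 of 46 complex I genes (19.6%), against 16.3% of all coding genes. The members' median span was the shorter one, and among genes of at most 50000 bp it was 17 of 110 members (15.5%), against 7.97% of coding genes. Peaks of 2 or more factors lay at 4 mitoribosome genes (MRPL47, MRPS15, MRPS27 and MRPS35) and 1 complex I gene (NDUFB5). This was 5 of 123 members (4.07%), against 4.13% of all coding genes, a share near the background. Among genes of at most 50000 bp it was 4 of 110 members (3.64%), against 1.03% of coding genes. MRPL47 and NDUFB5 were counted for the same peaks. Members with a peak in either library numbered 9 for BRG1 (all coding genes 13.2%), 7 for NRF2 (4.35%) and 12 for SMARCC1 (3.61%). Among the 110 short members they numbered 6 for BRG1 (short coding genes 5.76%), 6 for NRF2 (1.52%) and 11 for SMARCC1 (1.87%).

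These peaks formed 31 separate sites, of which 6 held a peak in both libraries of the factor. Of the 31 sites, 23 lay in an H3K4me3 region, 21 in an H3K27ac region, 1 in an H3K4me1 region and 7 in none of the marks. The same shares over all factor sites were not computed, and 122 of the 123 windows searched held an H3K4me3 region. These counts are therefore not read as a trait of the sites. The folds of these peaks were low, between 2.49 and 5.85. No SMARCC1 peak of either library, at members or elsewhere, had a −log10 q above 0.

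**Figure D5:**
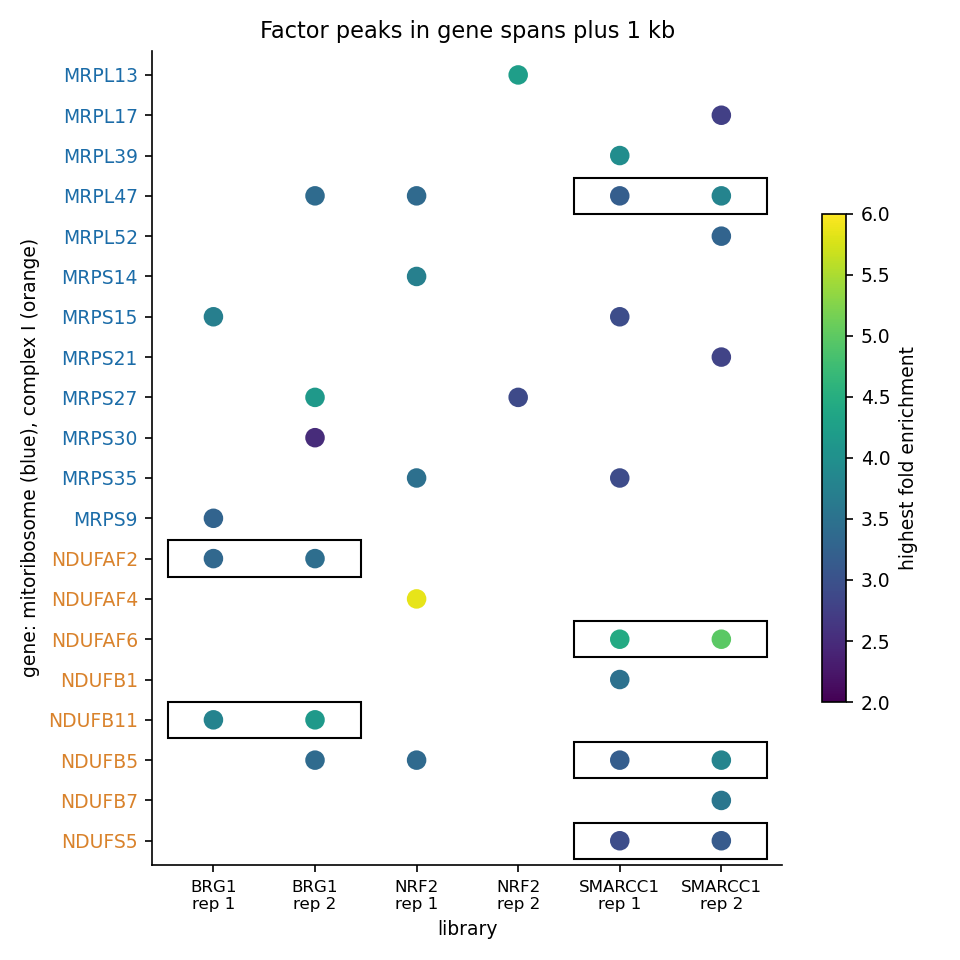
Named members with a factor peak (20 rows; mitoribosome blue, complex I orange) and the 6 factor libraries (columns); a dot is a peak in the span plus 1 kb, coloured by its highest fold enrichment, and a box marks overlapping peaks in both libraries. Of these genes 6 have a box, and MRPL47 and NDUFB5 hold the same site.

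The SMARCC1 site with the highest fold was inside NDUFAF6, an assembly factor related to phytoene synthases, at chr8:95024532-95024894, with folds of 4.43 and 4.98 (4.70 ± 0.390, SD, n = 2). It lay in H3K4me3 and H3K27ac. The SMARCC1 site shared by MRPL47 and NDUFB5, at chr3:179604887-179605250, had folds of 3.18 and 3.81 (3.49 ± 0.446). Another one, beside NDUFS5 at chr1:39025695-39025996, had 2.93 and 3.13 (3.03 ± 0.145). Both libraries held a peak at all 3, and the median over the 136 coding genes with a SMARCC1 region was 3.23.

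The shared start region of MRPL47 and NDUFB5, part of which is printed above, was the only place at members where all 3 factors had a peak. Beside the SMARCC1 site there was a BRG1 peak at chr3:179604408-179605016, in replicate 2 alone (fold 3.38), and an NRF2 peak at chr3:179604602-179604801, in replicate 1 alone (fold 3.36). The NRF2 summit lay 68 bp and the BRG1 summit 179 bp upstream of the MRPL47 start. The same region had the highest H3K27ac fold of the mitoribosome family.

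BRG1 had a site in both libraries at chrX:47144844-47145087, beside the NDUFB11 start and partly inside the promoter shown, with folds of 3.78 and 4.15 (3.97 ± 0.261, SD, n = 2). Its summit lay 277 bp upstream of the annotated NDUFB11 start and 242 bp from the start of RBM10, an RNA-binding splicing regulator on the other strand. It lay in H3K4me3 and H3K27ac. The site cannot be assigned to one of the 2 genes.

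The other BRG1 sites of both libraries were inside NDUFAF2, a gene of 207822 bp, far from its start and in none of the marks. One, at chr5:61051340-61051835, had folds of 3.34 and 3.43 (3.39 ± 0.0609, SD, n = 2) and lay 106571 bp downstream of the start. The other, at chr5:61083046-61083255, had 2.85 and 3.23 (3.04 ± 0.268) and lay 137983 bp downstream. A BRG1 peak of replicate 1 alone lay between the start and these sites at chr5:61048701-61048912 (fold 2.63), in an H3K4me1 region.

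NRF2 peaks at members were each in a single library. The highest was at the assembly factor gene NDUFAF4, at chr6:96898367-96898583, with a fold of 5.85 in replicate 1 and no peak in replicate 2. Its summit lay 551 bp upstream of the NDUFAF4 start and 359 bp from that of KLHL32. The MRPS14 peak at chr1:175023227-175023457 (fold 3.73, replicate 1) had its summit 54 bp downstream of the start. At MRPS35 a peak of replicate 1 (fold 3.45) lay 338 bp upstream, and inside MRPL13 a peak of replicate 2 (fold 4.22) lay in none of the marks.

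At MRPS27, an RNA-binding protein of the small subunit, a BRG1 peak (fold 4.14) and an NRF2 peak (fold 2.89), both of replicate 2 alone, overlapped at chr5:72256502-72256787, 63555 bp and 63525 bp downstream of the start and in none of the marks. MRPS15 had a BRG1 peak (fold 3.71) and a SMARCC1 peak (fold 2.60) of replicate 1 that overlapped, with summits 284 and 342 bp upstream of its start. BRG1 peaks of a single library also lay at MRPS9 (fold 3.28) and MRPS30 (fold 2.49). SMARCC1 peaks of a single library lay at MRPL17 (fold 2.76), MRPL39 (fold 3.95), MRPL52 (fold 3.27), MRPS21 (fold 2.81), MRPS35 (fold 2.91), NDUFB1 (fold 3.47) and NDUFB7 (fold 3.57). Of the BRG1 and SMARCC1 peaks listed here, the BRG1 peak at MRPS27 and the SMARCC1 peak at MRPS35 lay in none of the marks, and the others lay in H3K4me3.

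The promoter letters were counted over the 137 starts of the 109 members, 85 for the mitoribosome and 52 for complex I, on either strand and with overlaps between motifs allowed. For comparison, the table held 22132 coding promoters, of which 10847 had an H3K4me3 region on the start. The ETS core CCGGAA was in 54.1% of mitoribosome promoters and 26.9% of complex I promoters, against 32.3% of the H3K4me3-marked and 21.2% of all coding promoters. The YY1 core ATGGCGG was in 29.4% of mitoribosome and 36.5% of complex I promoters, against 11.2% of marked and 6.99% of all. The NRF1 core TGCGCA was in 20% of mitoribosome and 25% of complex I promoters, against 13.6% of marked and 9.89% of all. Genes with several starts count more than once, and their promoters overlap.

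The SP1 box GGGCGG was in 60% of mitoribosome and 65.4% of complex I promoters, against 75.03% of marked and 56.3% of all coding promoters. Median GC content was 60.3% in mitoribosome promoters, 61% in complex I promoters, 66.7% in marked and 62.3% in all coding promoters. CCAAT was in 32.9% and 30.8% (marked promoters 34.5%), and TATAAA in 3.53% and 5.77% (4.22%). The AP-1 letters TGANTCA were in 1.18% and 3.85% (3.36%), and the antioxidant element TGACNNNGC, the kind of site NFE2L2 is known to bind, in 10.6% and 23.1% (14.7%). Among members with an NRF2 peak, MRPS14, with its peak on the start in replicate 1, held 1 such element in the promoter shown. The promoters of MRPS35 and of MRPS27, whose peak lay far from its start, also held the element. Those of MRPL47 and of NDUFAF4, with the highest NRF2 fold, did not, and MRPL13 and NDUFB5 had no listed start. A match is a run of letters and not a bound site.

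The neighbouring genes of the same pathways, from a list of 55 with other mitoribosome proteins, other complex I assembly factors and nuclear subunits of complexes II to V, were looked up for comparison. H3K4me3 regions lay at 54 of 55 (all coding genes 62.4%), H3K27ac regions at 50 of 55 (50.2%) and H3K4me1 regions at 3 of 55 (26%). The median H3K4me3 fold was 20.3. There were 0 regions of BRG1, NRF2 or SMARCC1, against 4.36%, 0.626% and 0.681% of all coding genes. In at least 1 library OXA1L had a SMARCC1 peak and COA1 a BRG1 peak. The gene without H3K4me3 was DMAC2, and those without H3K27ac were DMAC2, ECSIT, NUBPL, COX5B and COX7B. Median H3K4me3 fold was 22.4 for the other mitoribosome proteins, 19.5 for the other assembly factors, and 23.6, 23.5, 21.1 and 21.7 for complexes II, III, IV and V.

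Across the series the lists held 572 to 6610 peaks for the factors and 17752 to 37283 for the marks. Marker genes of the labelled cell type were looked up, which cannot identify the line. H3K27ac lay at 6 of 6 duct epithelium genes (KRT7, KRT8, KRT18, KRT19, SOX9, MUC1), against 50.2% of all coding genes. H3K4me3 lay at 5 of them, all but KRT7, against 62.4%. H3K4me3 lay at 0 of 8 genes of other cells (PTPRC, CD3E, CD79A, PECAM1, CPA1, PRSS1, INS, ALB), and H3K27ac at 1 of them.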

How the data were processed

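Cells were mildly crosslinked, per the labels' protocols. The peak lists, deposited by the authors library by library, give for each peak a fold enrichment (a ratio over a background that is not stated), a −log10 p, a −log10 q and a score. The score was not used, and the −log10 p and −log10 q deposited by the authors served as thresholds in alternatives and in describing factor peaks. Bowtie2 2.4.1, SAMtools 1.9, Picard 2.23.9, MACS2 2.2.7.1 and GRCh38 are named per the submitters' processing notes, with no role or settings. Whether the IgG library was the control is not given in the sources used here. No read counts were given, so depth is unknown, and folds were not rescaled between libraries.

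Per gene and library the highest fold and the bases covered were taken from peaks overlapping the RefSeq span plus 1000 bp, and means and SD were computed over 2 libraries. Regions joined touching peaks of both libraries. Intervals are exact (Clopper-Pearson). No p was computed. Overlap counting was checked on simulated peaks.

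Named members were those with a factor peak, those without an H3K4me3 region, the extremes of each family in H3K4me3, H3K27ac, H3K4me1 and width, and the 7 core subunits. When factor peaks gave more than 20 genes, those of both libraries came first. The members without H3K27ac, MRPL57, MRPS30 and the neighbours with a nearby start were named after their values were seen. One gene that this rule names is counted but not reported by name here. Members and lists were chosen with earlier results of these data known. Alternatives were stricter thresholds, other windows, summits, peaks of either library, each library left out and short genes. Scripts ran in Python 3.11.15 with pandas 2.3.3, NumPy 2.4.6 and SciPy 1.17.1, and figures were drawn in matplotlib 3.10.9.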

Additional observations from a re-analysis of the deposited data

How the results depend on the processing

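The mitoribosome family stayed below complex I in H3K27ac share and in median H3K4me3 fold in every alternative that gave a value. The H3K27ac difference was -15.4 points with peaks of −log10 p at least 5, -15.9 at −log10 q 1.3, -7.03 at −log10 q 5, -18.2 without flanks, -8.64 with 5000 bp flanks, -9.49 within 1000 bp of a start, -13.8 with summits and -9.09 with peaks of either library. Leaving out a library gave -10.8 to -9.51. The H3K4me3 median difference was -3.97 over genes of at most 50000 bp and -4.18 within 1000 bp of a start, and its other alternatives lay between -5.59 and -4.29, the values with a library left out.

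Counts of factor and H3K4me1 regions rested on weak peaks. At −log10 p 5, −log10 q 1.3 and −log10 q 5 there were 0, 0 and 0 complex I genes with BRG1, 0, 0 and 0 mitoribosome and 1, 0 and 0 complex I genes with SMARCC1, and 1, 1 and 0 mitoribosome and 1, 2 and 0 complex I genes with H3K4me1. H3K27ac regions remained at 35 mitoribosome and 28 complex I genes at −log10 p 5, and at 13 and 11 at −log10 q 5. Without flanks 0 mitoribosome genes had SMARCC1, and with 5000 bp flanks 14 had H3K4me1. Within 1000 bp of a start 1 complex I gene had BRG1 and 0 had SMARCC1, and H3K4me1 lay at 1 mitoribosome and 1 complex I gene. Among short genes 1 complex I gene had BRG1. With peaks of either library, mitoribosome and complex I genes numbered 5 and 4 for BRG1, 5 and 2 for NRF2, 7 and 5 for SMARCC1, and 15 and 17 for H3K4me1. With one library left out, BRG1 lay at 2 to 3 mitoribosome and 2 to 4 complex I genes, NRF2 at 2 to 3 and 0 to 2, and SMARCC1 at 4 to 4 mitoribosome genes. The cause of these shifts was not tested. No H3K4me1 median could be given where no gene was left. No paired analysis was possible because no result comes from a test, and the differences within each library stand beside the pooled ones.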
